A study of Mus musculus with 9 samples.

Results

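The 10 genes described here encode 7 matrix metalloproteinases (Mmp2, Mmp3, Mmp9, Mmp10, Mmp13, Mmp14 and Mmp15) and 3 of their inhibitors (Timp1, Timp2 and Timp3). They were taken by symbol from 54838 genes measured by RNA-seq. The family was selected on its measured expression: it was chosen by the fold changes of a Zdhhc20 knockout clone, where Mmp10 is among the genes most raised, so its values in that clone are given as a description and the knockout comparisons of all members carry no p-value. Of the 10 members, 9 had at least 1 count in some library and 7 passed the filter on low counts, against 13153 genes that passed in all.

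Matrix metalloproteinases are zinc-dependent proteases that cut collagens, laminins, fibronectin and cell surface proteins. Most are secreted as inactive proenzymes, while Mmp14 and Mmp15 are anchored in the cell membrane. Tissue inhibitors of metalloproteinases, the Timp proteins, bind the active site, and the complex of Timp2 with Mmp14 is also known to present the proenzyme of Mmp2 for activation. In pancreatic ductal adenocarcinoma, part of the metalloproteinase pool comes from the stroma, which is not present in a cultured line.

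The line was PDA530 Met, a pancreatic ductal adenocarcinoma line from a male KPC mouse (isolated from metastatic growth in liver) on a mixed 129/SvJae/C57Bl/6 background, and all cultures were untreated. The knockout group was clone E4, a single-cell clone edited with CRISPR/Cas9 in Zdhhc20, which encodes a palmitoyltransferase. The control group was clone C5, a single-cell clone that was nucleofected with the same guide RNAs but was not edited. The parental group was the uncloned line, called PDA50 Met in the design text and PDA530 Met elsewhere. Each group had 3 libraries labelled as biological replicates, and each clone group stands for 1 clone, so differences between clones and effects of the edit cannot be told apart. Libraries held 16525869 to 23192701 counts. Zdhhc20 itself was at 33.9 to 42.5 CPM (counts scaled to library size with TMM) in the knockout libraries, below the 75.3 to 123 CPM of the other 6. Of 8 ductal epithelial markers all had counts, with Krt8 and Krt18 at group means of 1323 to 2754 CPM. Krt19 averaged 172 CPM in the knockout, 1491 CPM in the control and 1141 CPM in the parental libraries. Its log2 fold changes in the knockout clone were -3.12 against the control clone and -2.73 against the parental cells. Krt7 averaged 421, 842 and 395 CPM in the same order of groups. Epcam was low, but higher in the knockout libraries (10 to 13 counts) than in the others (2 to 5 counts). Col1a2, Col3a1, Dcn, Lum and Thy1, of 8 fibroblast markers, and Adgre1 and Cd3e, of 8 leukocyte markers, had 0 counts in all 9 libraries. The summed fibroblast markers were at 0.818 to 3.998 CPM, mostly Pdgfra and Col1a1. The log2 fold changes of Pdgfra in the knockout clone were -1.24 against the control clone and -2.04 against the parental cells. The first of these calls was lost in 4 alternatives. The summed leukocyte markers were at 18.2 to 20.1 CPM in knockout libraries, 24.9 to 42.2 CPM in control libraries and 47.4 to 55.2 CPM in parental libraries, mostly Cd14, and their part in the results was not tested.

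The promoters of the members fell into 2 kinds. RefSeq sequences on GRCm38.p6 (strain C57BL/6J, not the line itself) were matched for 8 of the 10 members, all but Mmp2 and Mmp9, and the 250 bases before the annotated start were searched. The AP-1 motif TGAGTCA, on either strand, and the TATA box TATAAA, on the strand of the gene, were both present in Mmp3, Mmp10 and Mmp13 and in no other matched member. The GC box GGGCGG, on either strand, was found in the other 5 and in none of these 3. Of 32851 promoter windows of the same length, 4.46% held the AP-1 motif, 7.59% the TATA box, 0.481% both and 32.7% the GC box, and no 2 of these motifs overlap in the members. A match is a match of letters and not a measured binding site. The windows of the 3 genes of the chromosome 9 cluster and of Mmp14 and Timp3, the members that results below turn on, are shown with these motifs in capitals.
Mmp10 (chr9:7502092-7502341, + strand): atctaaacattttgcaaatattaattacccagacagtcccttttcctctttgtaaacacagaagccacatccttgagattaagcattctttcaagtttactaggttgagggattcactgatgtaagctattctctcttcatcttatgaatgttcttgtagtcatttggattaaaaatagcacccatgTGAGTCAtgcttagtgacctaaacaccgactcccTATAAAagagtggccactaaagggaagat
Mmp13 (chr9:7272264-7272513, + strand): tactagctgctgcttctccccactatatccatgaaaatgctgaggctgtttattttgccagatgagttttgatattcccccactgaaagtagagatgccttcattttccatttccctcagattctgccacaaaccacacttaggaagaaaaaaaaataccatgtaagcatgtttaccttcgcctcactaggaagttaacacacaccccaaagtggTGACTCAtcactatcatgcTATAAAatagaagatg
Mmp3 (chr9:7445572-7445821, + strand): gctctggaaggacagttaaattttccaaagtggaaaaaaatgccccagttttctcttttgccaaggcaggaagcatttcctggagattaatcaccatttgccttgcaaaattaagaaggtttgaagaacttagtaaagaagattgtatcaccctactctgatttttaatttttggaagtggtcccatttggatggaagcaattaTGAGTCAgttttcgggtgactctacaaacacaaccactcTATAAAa
Mmp14 (chr14:54431348-54431597, + strand): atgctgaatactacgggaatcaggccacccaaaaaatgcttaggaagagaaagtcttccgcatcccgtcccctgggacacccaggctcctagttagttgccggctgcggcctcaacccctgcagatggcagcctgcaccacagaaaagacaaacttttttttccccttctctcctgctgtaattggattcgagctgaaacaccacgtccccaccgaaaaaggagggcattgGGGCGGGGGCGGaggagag
Timp3 (chr10:86300162-86300411, + strand): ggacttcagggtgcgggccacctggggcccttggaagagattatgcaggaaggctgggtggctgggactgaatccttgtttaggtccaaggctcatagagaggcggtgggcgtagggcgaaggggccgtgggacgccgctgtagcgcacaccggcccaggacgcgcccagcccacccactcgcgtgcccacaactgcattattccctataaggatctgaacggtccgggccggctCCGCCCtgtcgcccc

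In Mmp10 the AP-1 letters began 63 bases and the TATA box 29 bases before the start. In Mmp13 they began 35 and 16 bases before it, with the AP-1 motif on the opposite strand, and in Mmp3 46 and 7 bases before it. The GC content of these 3 windows was 37.2%, 40.4% and 37.6%, while that of the other 5 ran from 54.4% in Timp1 to 68.0% in Timp2. Outside the members, Mmp1a, Mmp1b and Mmp7 of the same cluster held both motifs as well, Mmp7 not in each of its windows. These genes had 1, 0 and 0 counts over all 9 libraries. The pair was not shared by the whole cluster. Mmp12 held the AP-1 motif without the TATA box, Mmp20 the TATA box without the AP-1 motif, and Mmp8 and Mmp27 neither.

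The control clone was compared with the parental cells first, because this comparison was not used to choose the members and shows how far an unedited clone stood from its line. Timp3 was higher in the control clone, and no member was called lower. Mmp10 passed the filter on low counts only through the knockout libraries, so edgeR's call of it in this comparison is not used and its counts are given as a description. Timp3 was thus 1 of the 6 other members tested, read against 21.4% of all tested genes called in either direction (10.4% higher and 11% lower), so the share of members called was close to that of all genes. Calls were made by edgeR's quasi-likelihood test, where the p-value after Benjamini-Hochberg adjustment over all 13153 tested genes was under 0.05. The median log2 fold change over all tested genes was 0.01. In RNA from whole cultures, fewer cells with a transcript and less of it per cell cannot be told apart.

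Timp3 encodes the inhibitor that stays bound to the matrix and also acts on ADAM proteases. It was at 41.5, 51.0 and 58.5 CPM in control libraries, 9.59, 10.96 and 10.8 CPM in parental libraries and 2.88, 3.12 and 2.75 CPM in knockout libraries. The 3 groups did not overlap, and the control clone was highest. Its mean was 50.3 ± 8.52 CPM in the control clone against 10.4 ± 0.745 CPM in the parental cells (SD, n = 3), a log2 fold change of 2.27 (SE 0.14, 4.82-fold, edgeR adjusted p 2.28e-05). The call was made under every alternative, with log2 fold changes from 2.15 to 2.39. Timp3 (ENSMUSG00000020044, chromosome 10 from 86300372 to 86349506) lies inside Syn3 on the opposite strand and shares exon bases with it. Since the strand setting is not given in the sources used here, reads of the pair could be mixed, but Syn3 was assigned only 7 to 24 counts per library, against 47 to 1114 for Timp3.

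Mmp10, known as stromelysin-2, held 9, 9 and 6 counts in the control libraries and 2, 2 and 1 counts in the parental libraries. These are low counts in both groups, although the groups did not overlap. The ratio of summed counts, 24 against 5, was 4.47 with an exact binomial 95% interval from 1.67 to 15, which covers counting error only.

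The other 5 tested members were not called in this comparison. Their log2 fold changes were 0.20 for Mmp13 (SE 0.13), 0.08 for Mmp14 (SE 0.07), 0.25 for Mmp15 (SE 0.40), 0.08 for Timp1 (SE 0.24) and 0.08 for Timp2 (SE 0.10). The SE of Mmp15 and Timp1 is wide because the control libraries differed among themselves. Mmp15 was at 10.6, 3.09 and 10.2 CPM in control replicates 1, 2 and 3. Timp1 was at 18.9, 25.1 and 11.5 CPM in the same libraries. Timp2 was called without control replicate 3 (log2 fold change 0.19, edgeR adjusted p 0.0395).

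**Figure D1:**
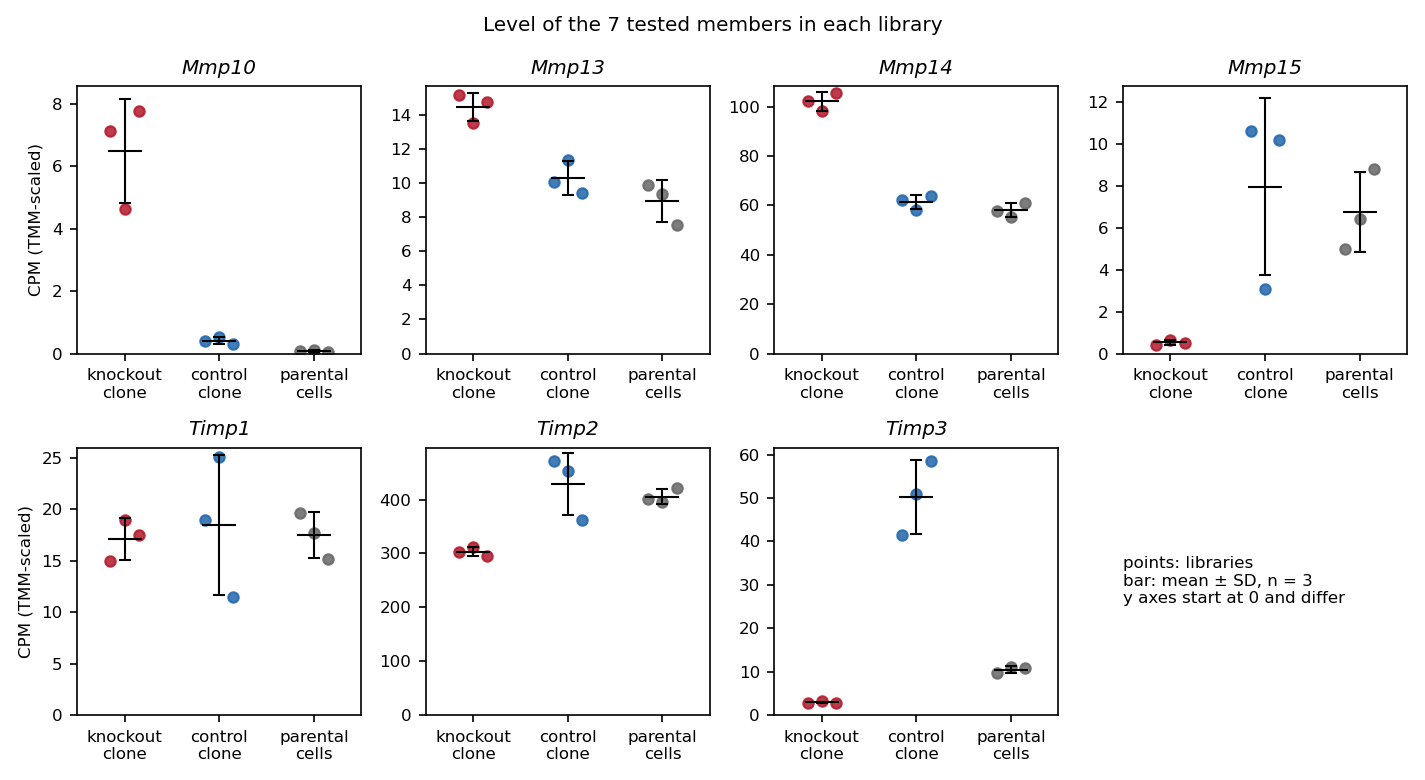
Level of each tested member in TMM-scaled CPM (y axis, linear from 0, a scale of its own in each panel) in the 3 libraries of each group (points), with the mean and SD (bars, n = 3). Timp3 is highest in the control clone at 41.5 to 58.5 CPM, Mmp10 is highest in the knockout clone, and Timp1 overlaps in all groups.

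The knockout clone was then set beside the control clone, an unedited clone of the same line, and beside the uncloned parental cells. Both comparisons share the knockout libraries. Mmp10, Mmp13 and Mmp14 were higher and Mmp15, Timp2 and Timp3 lower in the knockout clone in both, and Timp1 was called in neither. That is 6 of 7 tested members in each, while 42.9% of all tested genes were called against the control clone (18.7% higher, 24.2% lower) and 31.4% against the parental cells (13.1% higher, 18.3% lower). Mmp10 is in these counts, though it passed the filter on low counts only through the knockout libraries, where it is high. In all, 21.5% of tested genes were called in the same direction against both groups (8.19% higher, 13.4% lower). Mmp10, Mmp15 and Timp3 also differed by at least 1 on the log2 scale in both, which 7.37% of tested genes did. Because the rule used these comparisons, nothing is read from the counts of members. The medians over the 7 members were -0.11 and -0.04, and over all tested genes -0.02 and -0.01.

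Among the secreted proteases, Mmp10 (ENSMUSG00000047562, chromosome 9 from 7502352 to 7510240) reached 7.13, 4.62 and 7.77 CPM in knockout libraries. It was at 0.315 to 0.535 CPM in control libraries and 0.0588 to 0.118 CPM in parental libraries. The 3 knockout libraries, with 146, 83 and 133 counts, stood above all others. The log2 fold changes were 3.96 (SE 0.31) against the control clone and 6.05 (SE 0.39) against the parental cells. Because the parental libraries held 5 counts in all, the second rests on few reads, and the ratio of summed counts was 71.3 with a 95% counting interval from 30.3 to 221. Against the control clone that ratio was 16 (10.6 to 25.2).

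Mmp13 (ENSMUSG00000050578, chromosome 9 from 7272514 to 7283331), a collagenase that cuts fibrillar collagen, moved in the same direction by far less. It was at 15.1, 13.5 and 14.7 CPM in knockout libraries, 10.1, 11.4 and 9.40 CPM in control libraries and 9.88, 9.37 and 7.53 CPM in parental libraries. All 3 knockout libraries were above the other 6. The log2 fold changes were 0.49 (SE 0.13) and 0.69 (SE 0.13).

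Mmp3, or stromelysin-1, the close relative of Mmp10, is annotated between these genes on chromosome 9 and was nearly silent. It held 0, 2 and 0 counts in the knockout libraries, 2, 0 and 0 in the control libraries and 1, 2 and 2 in the parental libraries. The gelatinase Mmp9 held 2 counts in 1 knockout library, 1 count in each of 2 parental libraries and 0 in the other 6. The gelatinase Mmp2 had 0 counts in all 9 libraries, which allows a level of up to 0.131 to 0.179 CPM per library (3 counts, counting error only). These 3 members were not tested, and no fold is given for them. RSEM divides reads shared by similar genes, so a small part of the Mmp3 or Mmp10 counts could belong to the other.

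Of the membrane-type proteases, Mmp14 and Mmp15 moved in opposite directions. Mmp14 (ENSMUSG00000000957, chromosome 14 from 54431612 to 54445364) had 102, 98.3 and 106 CPM in knockout libraries, 62.2, 58.1 and 63.9 CPM in control libraries and 57.7, 55.3 and 61.0 CPM in parental libraries. The knockout libraries stood apart, and the other groups overlapped. The log2 fold changes were 0.73 (SE 0.07) and 0.82 (SE 0.07). The median over 437 tested genes of chromosome 14, which also carries Zdhhc20, was 0.19 and 0.21 in these comparisons.

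Mmp15 (ENSMUSG00000031790, chromosome 8 from 95352268 to 95375080) fell to a low level in the knockout clone. It was at 0.391, 0.668 and 0.526 CPM there, from 8 to 12 counts per library. The control libraries were at 10.6, 3.09 and 10.2 CPM and the parental libraries at 5.01, 6.42 and 8.83 CPM. No knockout library reached the lowest of the others, and control replicate 2 was the closest. The log2 fold changes were -3.92 (SE 0.52) and -3.67 (SE 0.53). Control replicate 2 also had the lowest summed level of the 8 ductal epithelial markers in its group, 7038 CPM against 9275 and 9406 CPM, and the knockout libraries had 4343 to 4474 CPM. The parental libraries had 6734, 6789 and 8206 CPM, with more Mmp15 than control replicate 2 in each. Epcam of the same list held 10 to 13 counts in the knockout libraries and 2 to 5 in the others. The part of the epithelial state in the Mmp15 values was not tested.

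The inhibitors did not move together. Timp1, a secreted inhibitor, was at 14.9, 18.9 and 17.5 CPM in knockout libraries and 19.7, 17.7 and 15.2 CPM in parental libraries. With the control libraries at 11.5 to 25.1 CPM, the groups overlapped throughout. The log2 fold changes of -0.11 (SE 0.24) and -0.04 (SE 0.24) were not called, and they do not show that Timp1 was equal.

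Timp2 (ENSMUSG00000017466, chromosome 11 from 118301069 to 118355740), the most abundant member, fell moderately. It was at 304, 312 and 295 CPM in knockout libraries, 471, 453.5 and 363 CPM in control libraries and 400.2, 396 and 421 CPM in parental libraries. The knockout libraries were below all others. The log2 fold changes were -0.50 (SE 0.10) and -0.42 (SE 0.10). Timp3, whose libraries are given above, fell by 4.11 on the log2 scale against the control clone (SE 0.15), 17.2-fold, and by 1.84 against the parental cells (SE 0.15), 3.57-fold. The difference in size follows the higher Timp3 level of the control clone.

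**Figure D2:**
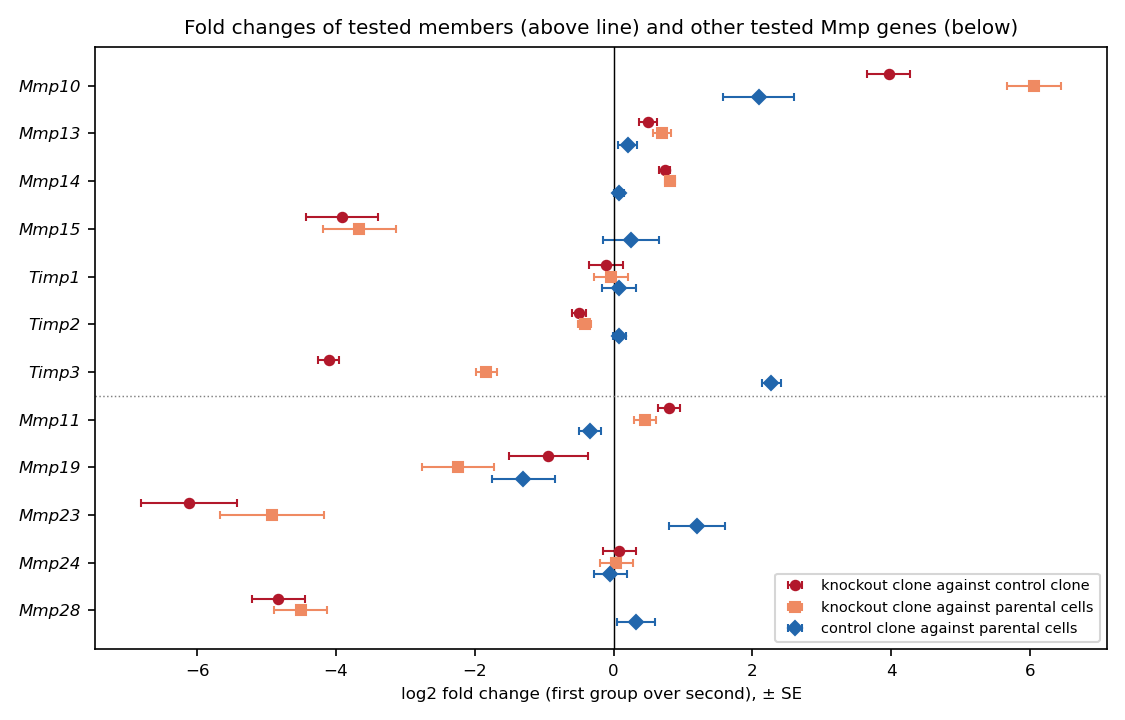
Log2 fold changes (x axis, first group over second) with their SE for the 7 tested members above the dotted line and the 5 other tested Mmp genes below it, in the 3 comparisons. Mmp10 lies at 3.96 and 6.05 in the knockout comparisons, Mmp15 at -3.92 and -3.67, and Timp3 lies at 2.27 in the comparison of control clone and parental cells.

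Levels of different genes were compared as CPM per kilobase (kb) of merged exon. In the parental cells the order was Timp2 (104 ± 3.45), Timp1 (19.7 ± 2.53), Mmp14 (9.73 ± 0.483), Mmp13 (3.34 ± 0.462), Timp3 (1.28 ± 0.0914), Mmp15 (1.25 ± 0.357) and Mmp10 (0.0529 ± 0.0174) CPM per kb (SD, n = 3). Timp3 and Mmp15 did not differ there beyond their spread, but with the longest transcript as the length they did (2.21 ± 0.158 against 1.31 ± 0.376). In the control clone Timp3 moved up to the place after Mmp14, at 6.18 ± 1.05 CPM per kb. In the knockout clone Mmp10, at 3.78 ± 0.967 CPM per kb, stood next to Mmp13, at 5.41 ± 0.314, while Timp3 was at 0.358 ± 0.023 and Mmp15 last at 0.0978 ± 0.0257. Timp1 (19.3 ± 2.27) and Mmp14 (17.1 ± 0.620) did not differ there beyond their spread, and with the longest transcript as the length Mmp14 (31.5 ± 1.14) came above Timp1 (19.4 ± 2.28).

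**Figure D3:**
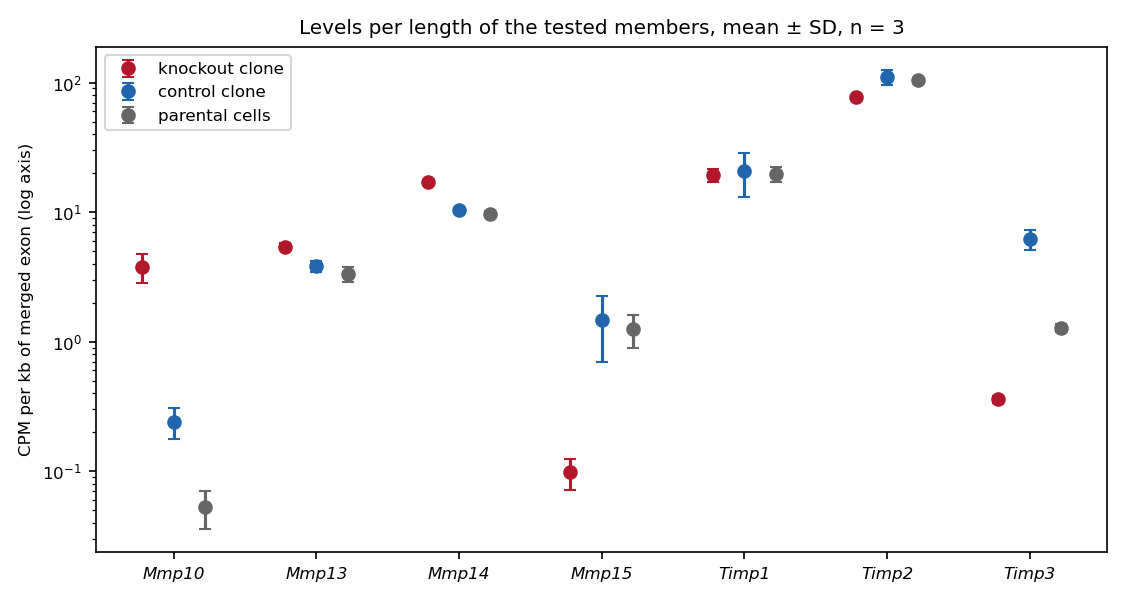
Level of each tested member per length, in CPM per kb of merged exon (log axis), as the mean and SD of 3 libraries per group. Timp2 is highest in every group at 77.9 to 110.1 CPM per kb, and Mmp10 runs from 0.0529 in the parental cells to 3.78 in the knockout clone.

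Timp2 binds Mmp14, so their levels per kb were set against each other in each library, as a description. The ratio of Timp2 to Mmp14 was 4.54, 4.86 and 4.27 in the knockout libraries. It was 11.6, 11.9 and 8.68 in the control libraries and 10.6, 10.9 and 10.5 in the parental libraries. The knockout libraries were the lowest, also with the longest transcripts as lengths (2.44 to 2.78 against 4.96 to 6.81). By merged exon length, Mmp14 made up 63.4% to 69.1% of the summed level of the 7 proteases in every library. Timp2 made up 77.1% to 85.4% of that of the 3 inhibitors. The share of Mmp14 depends on the length used. Its mean in the knockout clone was 17.1 CPM per kb by merged exon and 31.5 by longest transcript, while Mmp10 and Mmp13 were equal by both.

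Mmp3, Mmp10 and Mmp13 lie in a cluster of 10 Mmp genes on chromosome 9 from 7272514 to 7699585 (GRCm38), of which Mmp13 and Mmp10 were the tested genes. On the left the nearest tested genes were Msantd4, Dync2h1 and Dcun1d5, and on the right Tmem123, Birc2 and Birc3. Msantd4 ends at 4386870, far from the cluster, and is not in the plotted range. Against the control clone their log2 fold changes in the knockout clone were -0.97, -1.17, -0.75, -0.10, -0.75 and -0.53 in this order, and 4 of the 6 were called lower, as were 24.2% of all tested genes. Against the parental cells they were -1.03, -0.49, -0.47, 0.32, -0.73 and -0.24, with Msantd4, Dcun1d5 and Birc2 called lower and Tmem123 called higher (18.3% and 13.1% of all tested genes). The median over the 748 tested genes of chromosome 9 was -0.53 in both comparisons. Farther to the right, Yap1 was at -0.85 and -0.69 and Cfap300 at -1.505 and -0.845, while Cep126 lay above 0 in both, at 0.37 and 1.81. The Tmem123 call was lost without knockout replicate 3 (edgeR adjusted p 0.0543) and without parental replicate 2 (0.0578).

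**Figure D4:**
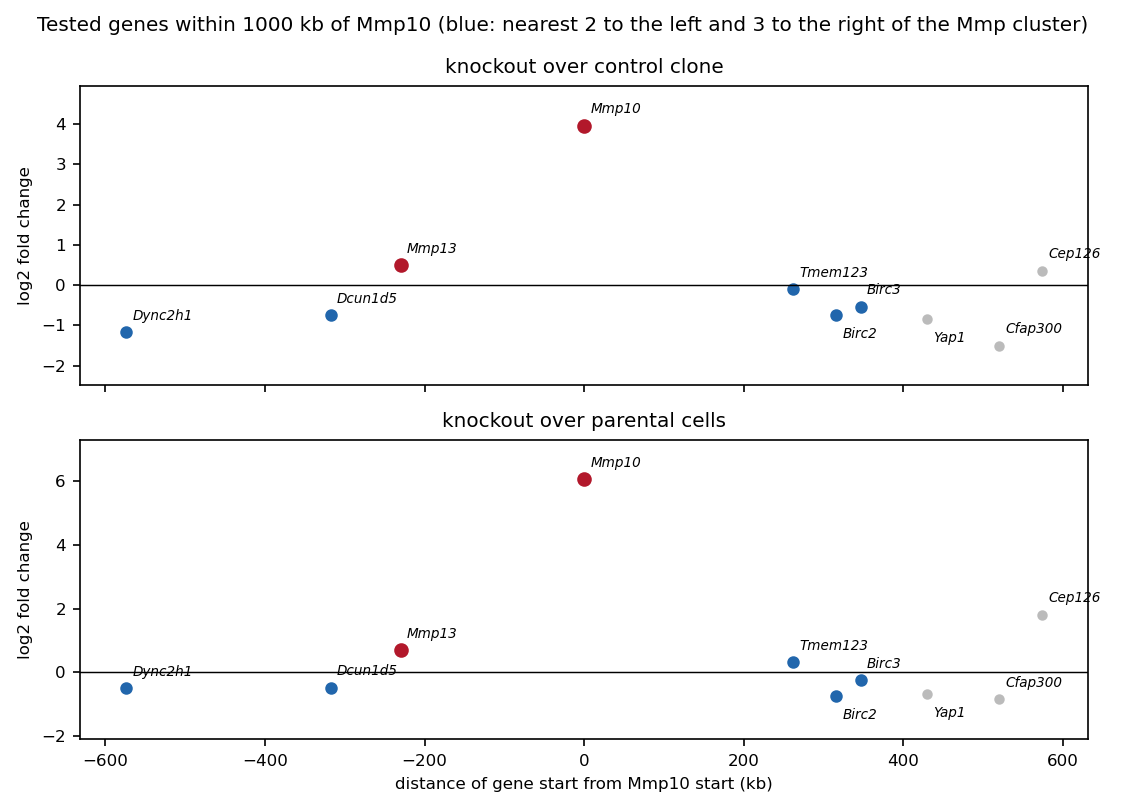
Log2 fold change in the knockout clone (y axis) of the tested genes around Mmp10, the farthest 574.1 kb away, by distance of their starts in kb (x axis), against the control clone (top) and the parental cells (bottom). Mmp10 and Mmp13 (red) lie above 0, as does Cep126 at the right edge, and the nearest tested neighbours (blue) lie below 0 except Tmem123 against the parental cells.

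Of the 17 other family members, 16 Mmp genes and Timp4, 5 had no count in any library and 5 were tested. Mmp28 and Mmp23 fell in the knockout clone like Mmp15. Mmp28 (epilysin, a protease of epithelia) averaged 0.487 ± 0.110 CPM in the knockout clone against 14.0 ± 5.08 CPM for control and 11.2 ± 2.49 CPM for parental cells (SD, n = 3), with log2 fold changes of -4.83 (SE 0.38) and -4.51 (SE 0.39). Mmp23 held 1, 0 and 1 counts in the knockout libraries against 21 to 86 in the others. Control replicate 2 was the lowest control library for both, at 8.09 CPM for Mmp28 and 1.49 CPM for Mmp23, as for Mmp15.

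Mmp11, or stromelysin-3, was higher in the knockout clone at 15.8 ± 0.840 CPM against 9.07 ± 1.89 CPM in the control clone (log2 fold change 0.80, SE 0.16) and 11.5 ± 1.22 CPM in the parental cells (0.45, SE 0.15). The second call was lost in 10 of 17 alternatives, among them total-count scaling, no filter, and leaving out any knockout library. Mmp19 passed the filter on low counts only through the parental libraries, so it is given by its counts alone, 4, 6 and 1 in the knockout libraries, 11, 4 and 8 in the control libraries and 15, 20 and 17 in the parental libraries. Mmp24 was at about 2 CPM in every group and was called in none of the comparisons. Between control clone and parental cells 0 of the 4 others were called by edgeR, where 21.4% of all tested genes were, and Mmp23 had an unadjusted p under 0.05 (p 0.0146).

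Genes that activate, bind or clear metalloproteinases were taken as a list of 16, of which 12 were tested. Against the control clone 5 rose and 5 fell, against the parental cells 3 rose and 3 fell, and 3 rose and 3 fell against both. The median log2 fold changes were 0.00 and 0.07, and 42.9% and 31.4% of all tested genes were called. Bsg, Plaur and Plat lost their calls against the control clone in 6, 4 and 1 alternatives, and Plaur against the parental cells in 6. Plau, the urokinase that makes plasmin, an activator of several proenzymes, was at 20.9, 24.9 and 20.96 CPM in knockout libraries, with 8.08 to 11.4 CPM in the control and 6.71 to 8.72 CPM in parental libraries. It rose by 1.27 (SE 0.16) and 1.55 (SE 0.16) on the log2 scale. Lrp1, an endocytic receptor that clears proteases, fell by 1.86 (SE 0.42) and 1.70 (SE 0.41). Its first value was -1.26 without control replicate 3, and the second call was lost without knockout replicate 3 (edgeR adjusted p 0.0507). Itgb3, an integrin subunit, fell by 2.11 (SE 0.37) and 1.70 (SE 0.37). In control replicate 2, Lrp1 and Itgb3 were again the lowest of their group, at 25.3 and 27.8 CPM. Reck, a membrane inhibitor of metalloproteinases, had 0 counts in all libraries. Pcsk6 was the only gene of this list called between control clone and parental cells (0.82, higher), 1 of 12 tested, where 21.4% of all tested genes were called.

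Of 15 ADAM and ADAMTS proteases, related enzymes that Timp3 inhibits in part, 11 were tested. Against the control clone 4 rose and 4 fell, and against the parental cells 2 rose and 3 fell, with medians of -0.20 and -0.01, where 42.9% and 31.4% of all tested genes were called. Against the control clone, Adamts1 and Adamts7, which rose, each lost the call in 5 alternatives and Adam17, which fell, in 4. Adam8 lost its lower call against the parental cells in 4. Adamts6 was at 17.1, 13.6 and 15.01 CPM in knockout libraries and at most 4.09 CPM in any other, and rose by 2.98 (SE 0.32) and 2.30 (SE 0.31). Adam12 rose by 1.08 (SE 0.30) and 1.17 (SE 0.30), calls that were lost without control replicate 1 (edgeR adjusted p 0.0662) and without knockout replicate 1 (0.0507) or parental replicate 3 (0.0674). Adamts15 fell by 1.44 (SE 0.36) and 2.25 (SE 0.36). Between control clone and parental cells, where 21.4% of all tested genes were called, 3 rose and 2 fell, among them Adamts1 (-1.10, SE 0.21, edgeR adjusted p 0.00667) and Adamts7 (-1.33, edgeR adjusted p 0.0478), and the Adamts7 call was lost in 11 alternatives. Adam15, which rose, lost its call without parental replicate 1 or 2 (edgeR adjusted p at most 0.052).

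Of 18 matrix and surface substrates, 11 were tested, and Col1a2, Col3a1, Eln and Dcn had no count. Between control clone and parental cells 4 rose and 2 fell, where 10.4% of all tested genes were called higher and 11% lower. Those that rose were the basement membrane genes Col4a1, Col4a2, Lama5 and Nid1, with log2 fold changes of 0.41 to 0.70 (the calls of Col4a1 and Lama5 were lost in 4 and 7 alternatives), and those that fell were Fn1 and Vcan. Fn1, which encodes fibronectin, was at 152, 157 and 136 CPM in control libraries and 494, 448.5 and 391 CPM in parental libraries (log2 fold change -1.58, SE 0.10, edgeR adjusted p 2.88e-05). Vcan, which encodes versican, was at 0.742 to 1.13 CPM in the control and 6.00 to 8.43 CPM in parental libraries (-2.96, SE 0.21, edgeR adjusted p 5.07e-05). In the knockout clone 2 substrates rose and 6 fell against the control clone, and 2 rose and 3 fell against the parental cells, with medians of -0.31 and 0.03. Of all tested genes, 18.7% and 24.2% were called higher and lower in the former and 13.1% and 18.3% in the latter. Col4a1 lost its lower call against the control clone in 10 alternatives, and Col4a2 its higher call against the parental cells in 6. Fn1 was called higher in both, at 749 to 849 CPM in knockout libraries.

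Transcription factors known at metalloproteinase promoters were taken as a list of 18, of which 17 were tested. Between control clone and parental cells 1 rose and 10 fell, where 10.4% and 11% of all tested genes did, with a median log2 fold change of -0.36 against 0.01 over all tested genes. Without parental replicate 1 the lower calls of Fosb, Junb, Etv5, Runx1, Runx2 and Nfkb1 were lost, while those of Jun, Fos, Egr1 and Sp1 were made in all alternatives. Jun, an AP-1 subunit, was at 11.4, 12.3 and 11.1 CPM in control libraries and 32.9, 34.2 and 31.2 CPM in parental libraries (log2 fold change -1.50, SE 0.11, edgeR adjusted p 5.05e-05). Fos fell by 2.51 (SE 0.29, edgeR adjusted p 0.000564). Egr1, an immediate early factor, fell by 5.84 (SE 0.18, edgeR adjusted p 7.04e-07).

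In the knockout clone 11 of the 17 factors rose and 2 fell against the control clone, and 5 rose and 4 fell against the parental cells, with medians of 0.67 and 0.26. Of all tested genes, 18.7% rose and 24.2% fell in the former and 13.1% and 18.3% in the latter. The factors that fell against the control clone, Junb and Ets2, lost their calls in 11 and 5 alternatives, and Fos lost its lower call against the parental cells in 7. Of those that rose, Fosl1 lost its calls in 6 and 4 alternatives. Jun was at 77.2, 86.7 and 67.9 CPM in knockout libraries, above all other libraries, with log2 fold changes of 2.74 (SE 0.11) and 1.24 (SE 0.10). Fosb, another AP-1 subunit, was at 48.7, 45.6 and 40.7 CPM there and at most 21 CPM elsewhere, with log2 fold changes of 2.52 (SE 0.30) and 1.55 (SE 0.28). Fos was at 18.5 to 25.8 CPM in knockout libraries, above the control libraries (3.99 to 10.3 CPM) and below the parental libraries (34.2 to 40.6 CPM). The order of the groups was not the same for all AP-1 subunits. Mmp3, whose promoter window also holds the AP-1 motif, was at 0 to 2 counts in every library. Whether AP-1 has a part in the Mmp values was not tested.

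**Figure D5:**
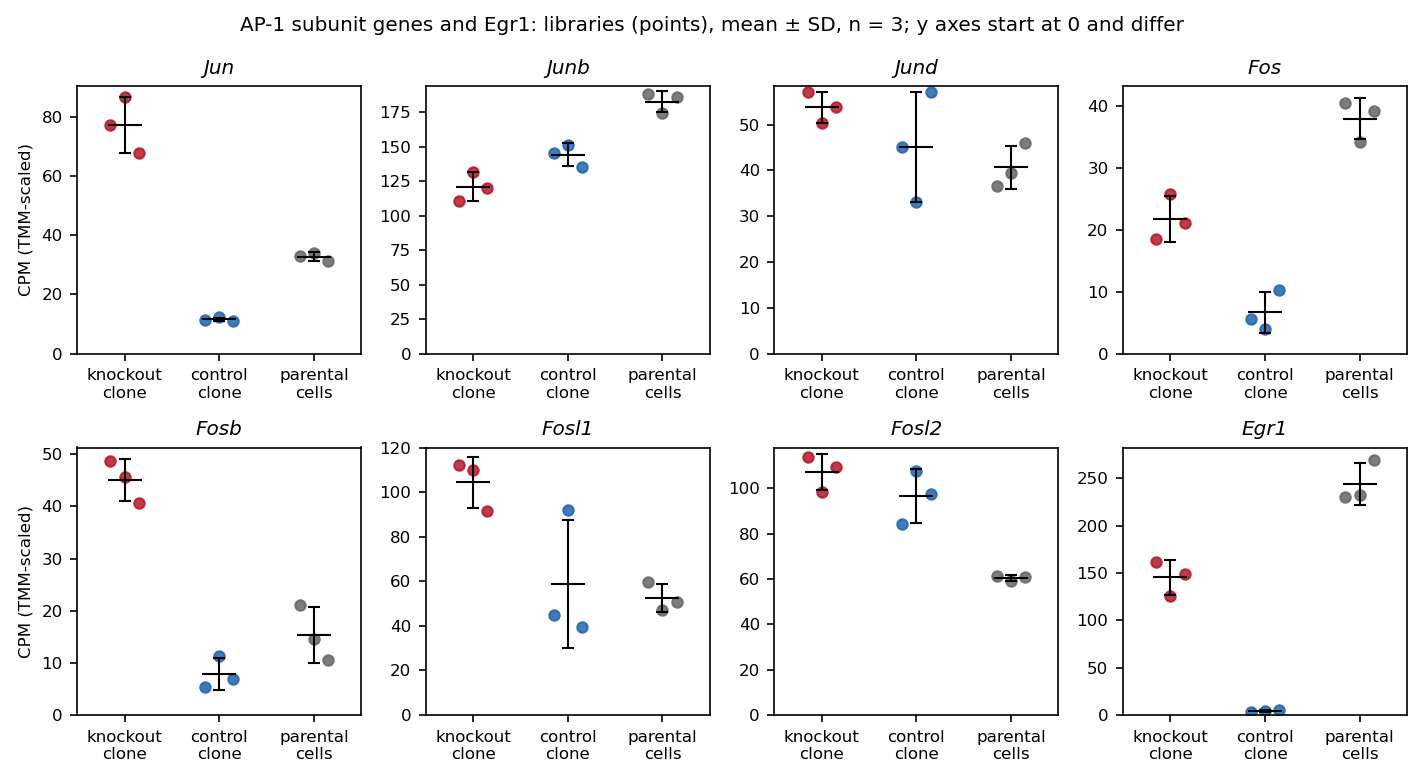
Level in TMM-scaled CPM (y axis, linear from 0, a scale of its own in each panel) of 7 AP-1 subunit genes and Egr1 in the 3 libraries of each group (points), with the mean and SD (bars, n = 3). Jun and Fosb are highest in the knockout clone, while Fos and Egr1 are highest in the parental cells and lowest in the control clone.

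The genes whose profile over the 9 libraries was most like that of Mmp10 were Dkk2, Ism1, Wnt7b, Igf2bp3 and Col8a1. Likeness was the root mean square difference of mean-centred log2 CPM among tested genes averaging 5 CPM or more, and it was 0.77, 0.84, 0.98, 0.99 and 1.1. Dkk2 is a secreted Wnt antagonist and Wnt7b a Wnt ligand, Igf2bp3 an RNA-binding protein and Col8a1 a short-chain collagen. Each was higher in all knockout libraries than in the other 6, which follows from their choice by likeness to Mmp10 and is no separate result. Dkk2, for example, was at 21.2 to 30.5 CPM against 0.960 to 2.60 CPM.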

How the data were processed

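RNA-seq was available for 9 libraries of PDA530 Met cells in 3 groups of 3. The authors deposited estimated counts per Ensembl gene, 1 column per library, and all values were whole numbers. The submitters' processing notes name RSEM 1.3.0, STAR 2.5.2, DESeq2 1.10.1 and build GRCm38, with no role or order; annotation release and strand setting are not given in the sources used here. Symbols, positions and exon lengths came from GENCODE M21 (GRCm38), which held 54809 of 54838 identifiers, and promoters from RefSeq (GRCm38.p6).

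Counts were filtered with filterByExpr (minimum count 10, minimum total 15), TMM-scaled and tested with edgeR 4.0.16 (glmQLFit, glmQLFTest) in R 4.3.3, with all 9 libraries in 1 fit and the group as the only term. Log2 fold changes carry edgeR's prior count of 0.125, and the SE is the fold change without it over the square root of F. Adjusted p-values are Benjamini-Hochberg over all 13153 tested genes. P-values measure the spread between libraries of 1 clone or line, called biological replicates in the design text, which does not say whether cultures were separate. The members, lists and the rule for naming genes (members, other tested Mmp genes, list genes changed at least 1 on the log2 scale, neighbours of the cluster and genes most like Mmp10) were chosen with earlier results of these data known. Alternatives were other scalings (DESeq2 1.42.0 size factors, total counts), filters (none, a mean of 5 CPM), tests (DESeq2, limma 3.58.1 voom), a fit with only 2 groups, a replicate block, and each library left out.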

Additional observations from a re-analysis of the deposited data

How the results depend on the processing

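In both knockout comparisons, which were used to choose the members and are given as a description, the log2 fold changes of the tested members kept their sign under the alternatives, except those of Timp1 (with a library left out, -0.36 to 0.166 against the control clone and -0.129 to 0.058 against the parental cells). The Timp3 call between control clone and parental cells was kept throughout. There the count of members called was 1 in place of 2 with a mean of at least 5 CPM and in the 2-group fit, where Mmp10 was not tested, and 1 with limma voom, the other member being Mmp10, whose call is not used; it was 1 to 3 with a library left out, being 1 without parental replicates 1 or 3. Members not called there changed sign with a library left out, Mmp15 from -0.015 to 0.626 and Timp1 from -0.201 to 0.323. Mmp24, never called, ran from -0.08 to 0.002 there, from -0.15 to 0.24 against the control clone and from -0.199 to 0.18 against the parental cells, where limma voom gave -0.002.

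Over all genes, fitting only the 2 groups called 1525 genes in place of 2814 between control clone and parental cells, and 6840 in place of 4131 between the knockout clone and the parental cells. With 1 library left out these counts ran from 1472 (without parental replicate 1) to 4102 (without control replicate 3), with 1537 and 1792 without parental replicates 2 and 3, and from 2515 (without parental replicate 3) to 5693 (without control replicate 3), with 2626 without knockout replicate 1. Total-count scaling moved the share of lower genes among the former calls from 51.3% to 61.2%.

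The replicate numbers are shared by the groups, but same-numbered libraries did not deviate together (correlations of deviations from -0.134 to 0.212), so the replicate block was only an alternative. With it 2492, 5528 and 3941 genes were called in place of 2814, 5643 and 4131, and 2, 6 and 6 members as without it. These counts of members include Mmp10, which passed the filter only through the knockout libraries. At these depths the counts of Mmp3, Mmp9 and, outside the knockout clone, Mmp10 are too low to show moderate differences.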
